A study of Mus musculus with 6 samples.

Results

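The cyclins are the regulatory subunits that switch cyclin-dependent kinases on and off through the cell cycle, and 9 of their genes, together with the kinase gene Cdk1, were followed here in cardiomyocytes (CMs) of the developing mouse heart. These 10 genes (Ccnd1, Ccnd2, Ccnd3, Ccne1, Ccne2, Ccna2, Ccnb1, Ccnb2, Ccng2 and Cdk1) were chosen by symbol from the 27998 genes of the count tables, and each symbol was found there under 1 gene identifier. The CMs came from the left heart ventricle of C57BL/6J mice at embryonic day 16.5 (E16.5), postnatal day 1 (P1) and postnatal day 5 (P5). Fixed heart cells were stained for the myosin heavy chain MYH1 and with Hoechst, sorted by FACS into CMs of 2n and of 4n DNA content, and measured by droplet single cell RNA sequencing (scRNA-seq) of transcript 3′ ends. A library was made for each age and DNA content (E16.5-2n and E16.5-4n, and likewise for P1 and P5) from the pooled cells of 3 sorts, each of another litter, so that every group was 1 library. A ratio of 2 single libraries has no test, and 4n over 2n was tested over the 3 ages together, with age as the pairing. Ages were compared without a test, since both libraries of an age were taken to come from the same sorts. A 4n DNA content can belong to a CM in G2 or M, to a mononucleated tetraploid CM or to a binucleated CM, and the sort did not tell these apart. The paper counted nuclei in sorted P5 CMs. It reports nearly all 2n CMs as mononucleated, and the 4n CMs as partly mononucleated and, in a somewhat smaller part, binucleated. Joined 2n cells would also read as 4n. The paper describes clumps as scarce among sorted P5 CMs, and whether joined cells were among the 4n CMs was not tested here.

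D-type cyclins (Ccnd1, Ccnd2, Ccnd3) bind Cdk4 and Cdk6 in G1 and answer to growth signals, and E-type cyclins (Ccne1, Ccne2) bind Cdk2 at the passage into S phase. Cyclin A2 (Ccna2) acts with Cdk2 and Cdk1 during S and G2, and the B-type cyclins (Ccnb1, Ccnb2) bind Cdk1 and drive entry into mitosis, after which they are destroyed by the anaphase promoting complex. Cyclin G2 (Ccng2) is an atypical cyclin that has been linked with cell cycle arrest. In the mouse heart, CMs divide before birth, and after birth many pass through a last round of DNA synthesis without dividing, which leaves them polyploid or binucleated.

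Levels are given as unique molecular identifiers (UMIs), that is counted transcript ends, which were added up over all CMs in each library and scaled to 1000000 UMIs of those CMs (CPM, counts per 1000000). CMs were the 30733 of 31156 cells with at least 1 UMI of each of Tnni3, Tnnt2, Tnnc1 and Actc1, and a library held 3654 to 7340 of them with a median of 1831 to 4658 UMIs per CM. Intervals in parentheses are exact 95% intervals that cover counting error only. A gene was counted as 2-fold different when the ratio of its CPM in 2 libraries reached 2, since 2 single libraries give no test to call it by. The summed level of 7 CM genes was 30323 to 37254 CPM in every library. They include Tnni3, Tnnt2, Tnnc1 and Actc1, which defined a CM, so the filter itself favours a high sum. Markers of fibroblasts, endothelial, immune, mural and epicardial cells (29 genes) summed to 197, 958, 192, 1149, 358 and 461 CPM in the 2n and 4n libraries of E16.5, P1 and P5 in turn. Of these markers, 2 were at 0 in E16.5-2n and 0 elsewhere. Erythroid markers (haemoglobin genes and Alas2), which are not among the 29, summed to 5125, 10327, 1895, 2905, 2241 and 1648 CPM in the same order. Whether these transcripts were free RNA or came from erythroid cells was not tested. Of all barcodes, 499 occurred in more than 1 library, and 0 of them carried the same counts.

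In the gene annotation of mouse build GRCm38 all 10 members were protein-coding, and Ccnd1 and Ccne1 were the only members on the same chromosome (7). The mitotic members lay apart from each other: Cdk1 (chr10:69335146-69352938, minus strand, ENSMUSG00000019942), Ccnb1 (chr13:100778650-100786570, minus strand, ENSMUSG00000041431), Ccnb2 (chr9:70407692-70421547, minus strand, ENSMUSG00000032218) and Ccna2 (chr3:36564865-36572150, minus strand, ENSMUSG00000027715). Pseudogene copies are annotated for Ccnd3, Ccnb1 and Ccnb2, and none of these was a row of the count tables, so how reads shared with a copy were handled cannot be seen in the counts.

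The promoters of Ccnb1, Ccnb2 and Cdk1, whose transcripts were ordered alike over the 6 libraries, are printed with that of Ccne1, whose transcripts were not. They were picked by that order. Ccna2 shared it but had no window in the source used here, so its promoter could not be looked at. They are RefSeq windows of 300 bases on the minus strand of GRCm38.p6, from 250 bases before the start site to 50 after it, at chr13:100786437-100786736, chr9:70421505-70421804, chr10:69352863-69353162 and chr7:38107441-38107740. Capitals mark CCAAT boxes (CCAAT or its reverse complement ATTGG), the sequence bound by the factor NF-Y, and the cell cycle element TTTGAA (reverse complement TTCAAA, which did not occur in them). Their positions were read on both strands, and no marked stretches overlapped.
Ccnb1: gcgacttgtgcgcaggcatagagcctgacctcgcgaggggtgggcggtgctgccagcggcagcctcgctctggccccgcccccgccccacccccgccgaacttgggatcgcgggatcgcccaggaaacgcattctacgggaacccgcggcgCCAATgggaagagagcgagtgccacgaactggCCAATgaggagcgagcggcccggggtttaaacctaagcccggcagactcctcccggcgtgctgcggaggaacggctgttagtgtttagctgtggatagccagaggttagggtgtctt
Ccnb2: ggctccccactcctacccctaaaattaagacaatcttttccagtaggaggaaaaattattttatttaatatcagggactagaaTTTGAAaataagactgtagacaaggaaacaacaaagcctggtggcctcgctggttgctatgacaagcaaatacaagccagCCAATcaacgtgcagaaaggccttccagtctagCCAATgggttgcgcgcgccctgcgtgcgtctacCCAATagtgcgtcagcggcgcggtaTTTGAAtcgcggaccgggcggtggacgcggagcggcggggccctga
Cdk1: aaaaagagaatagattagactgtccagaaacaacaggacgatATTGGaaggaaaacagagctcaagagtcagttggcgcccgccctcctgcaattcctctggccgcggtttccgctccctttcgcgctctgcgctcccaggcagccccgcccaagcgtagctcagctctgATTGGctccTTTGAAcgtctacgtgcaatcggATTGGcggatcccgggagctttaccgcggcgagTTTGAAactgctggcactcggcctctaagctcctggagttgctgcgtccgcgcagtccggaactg
Ccne1: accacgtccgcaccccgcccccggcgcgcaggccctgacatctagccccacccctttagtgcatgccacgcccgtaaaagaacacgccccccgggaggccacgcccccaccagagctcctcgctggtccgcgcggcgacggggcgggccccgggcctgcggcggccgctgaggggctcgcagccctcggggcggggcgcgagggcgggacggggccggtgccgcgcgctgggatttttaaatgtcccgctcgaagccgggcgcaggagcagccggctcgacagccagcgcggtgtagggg

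Ccnb1 had 2 CCAAT boxes, Ccnb2 had 3 and Cdk1 had 3, and Ccne1 had 0. The first bases of 2 neighbouring boxes lay 32 bases apart in Ccnb1 (99 and 67 bases before the start site), 33 apart in both pairs of Ccnb2 (87, 54 and 21 bases before it) and 32 apart in Cdk1 (80 and 48 bases before it, with a further box at 208). Among the 32851 windows of all genes, 37.4% held at least 1 CCAAT box, 11.7% at least 2, 3.37% at least 3 and 0.606% a pair 32 or 33 bases apart, the last being counted after the spacing had been seen. The element TTTGAA occurred 2 times in Ccnb2 (167 bases before and 4 after the start site) and 2 times in Cdk1 (71 and 15 bases before it), against 2.31% of all windows with at least 2 and 17.9% with at least 1, and it was not in the Ccnb1 window. The windows of Ccng2 and of the upstream start of Ccnd3 held neither motif, and the downstream start of Ccnd3 held 1 CCAAT box. A match to these letters is a description of the sequence and was not tested for binding.

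Ccna2, Ccnb1, Ccnb2 and Cdk1, called the mitotic members from here on, were at least 2-fold higher in 4n than in 2n CMs at all 3 ages. At E16.5, 6 of the 10 members were at least 2-fold higher in 4n CMs (Ccna2, Ccnb1, Ccnb2, Cdk1, Ccnd1 and Ccng2), where 4.64% of the 9625 genes with at least 100 UMIs over both libraries were. There 0 members were at least 2-fold lower, as were 0.0208% of these genes. At P1, 5 members were at least 2-fold higher in 4n CMs (the same without Ccng2, against 5.23% of all genes) and 0 were lower (0% of all genes). At P5, 4 were at least 2-fold higher (Ccna2, Ccnb1, Ccnb2 and Cdk1, against 1.87% of all genes) and 1 was lower (Ccne2, against 0.406% of all genes). The median log2 ratio over the 10 members was 1.17 at E16.5, 0.98 at P1 and 0.40 at P5, beside 0.033, 0.049 and 0.019 over all genes.

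Over the 3 ages together, Ccna2, Ccnb1, Ccnb2 and Cdk1 passed the test for a higher level in 4n CMs, and the other 6 members did not. The test was edgeR's quasi-likelihood test on the UMIs of CMs summed per library, with age as a replicate block and p-values adjusted by Benjamini-Hochberg over 9628 genes. It was added after the ratios had been seen, and it rests on 2 residual degrees of freedom, with variances moderated across genes. The ages stood in for replicates, so a 4n over 2n ratio that differed between ages counted as error. A member that did not pass may therefore still differ between the ploidies at single ages. Of all genes, 1.78% were higher and 0.166% were lower at an adjusted p under 0.05. The fitted log2 difference of 4n over 2n was 2.83 for Ccnb1 (SE 0.17, edgeR adjusted p = 0.000555), 2.09 for Ccna2 (SE 0.12, adjusted p = 0.000464), 1.89 for Cdk1 (SE 0.069, adjusted p = 0.000228) and 1.89 for Ccnb2 (SE 0.26, adjusted p = 0.0177). The SE was taken as the log2 difference divided by the square root of the test's F statistic. Each of the 4 genes was higher in the 4n library at 3 of 3 ages. The call of Ccnb2 was lost without the E16.5 libraries (edgeR adjusted p = 0.0566), and all 4 were lost without the replicate block. Ccng2 had 0.73 (edgeR adjusted p = 0.061), Ccne2 had -1.01 (0.125) and Ccnd1 had 1.05 (0.187), and the adjusted p of Ccnd2, Ccnd3 and Ccne1 lay between 0.206 and 0.355. A further fit left out CMs under 1000 UMIs and CMs with at least 2 UMIs of markers of other cell types at that depth. In it 6 members passed, since Ccng2 (edgeR adjusted p = 0.032) and Ccne2 (0.0479) then did. More of all genes passed as well, 348 against 187 in the fit with all CMs, and their share of the genes tested is not given.

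**Figure D1:**
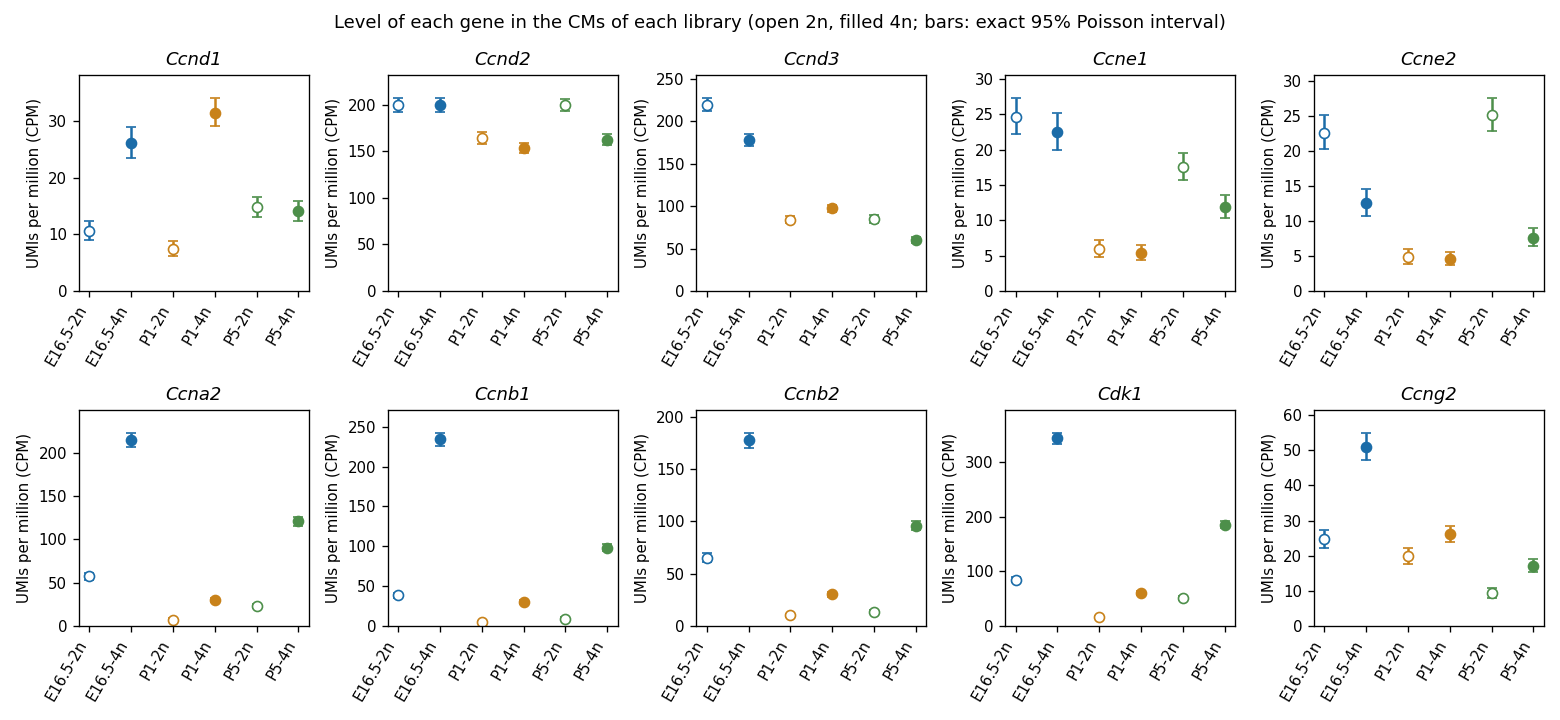
Level of each of the 10 genes (CPM, linear axes from 0) in the CMs of the 6 libraries, open circles for 2n and filled circles for 4n, with exact 95% Poisson intervals. Ccna2, Ccnb1, Ccnb2 and Cdk1 stand highest in E16.5-4n and next highest in P5-4n, Ccnd2 varies between 153 and 199.9 CPM, and Ccnd3 stands highest in the E16.5 libraries.

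Ccnb1, the cyclin that activates Cdk1 at the entry into mitosis, stood at 38.4 CPM (35.3 to 41.7) in 2n and 234 (226 to 242) in 4n CMs at E16.5, 4.93 (3.91 to 6.12) and 29.4 (27.1 to 31.9) at P1, and 9.26 (7.91 to 10.8) and 98.4 (93.9 to 103) at P5. The 4n library was higher than the 2n library at each age, by a log2 ratio of 2.61 (2.48 to 2.74) at E16.5, 2.58 (2.24 to 2.93) at P1 and 3.41 (3.18 to 3.65) at P5. The P5 ratio, 10.6-fold (9.06 to 12.5), was larger than 99.97% of all genes' ratios at that age. Ccnb2, the second B-type cyclin, stood at 65.0 CPM (60.9 to 69.2) in 2n and 177 (170.0 to 184) in 4n CMs at E16.5, 10.2 (8.67 to 11.8) and 30.1 (27.7 to 32.6) at P1, and 13.7 (12.0 to 15.5) and 95.6 (91.2 to 100.2) at P5. Its log2 ratio of 4n over 2n was 1.45 (1.34 to 1.56) at E16.5, 1.57 (1.32 to 1.82) at P1 and 2.81 (2.61 to 3.01) at P5, so that the interval at P5 lay above those at the earlier ages. Both B-type cyclins had their highest ratio at P5.

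Ccna2 stood at 57.4 CPM (53.6 to 61.4) in 2n and 215 (207 to 223) in 4n CMs at E16.5, 7.18 (5.94 to 8.59) and 30.2 (27.8 to 32.7) at P1, and 22.4 (20.3 to 24.7) and 121 (116 to 126) at P5. Its log2 ratio of 4n over 2n was 1.91 (1.79 to 2.02), 2.07 (1.78 to 2.37) and 2.43 (2.27 to 2.59) from E16.5 to P5. The interval at P5 lay above that at E16.5. Cdk1, the kinase that these cyclins bind, stood at 84.7 CPM (80.1 to 89.6) in 2n and 344 (334 to 354) in 4n CMs at E16.5, 16.4 (14.5 to 18.5) and 60.2 (56.8 to 63.7) at P1, and 50.5 (47.3 to 53.9) and 186 (179.8 to 192) at P5. Its log2 ratio was 2.02 (1.93 to 2.11) at E16.5, 1.87 (1.68 to 2.07) at P1 and 1.88 (1.77 to 1.99) at P5, with all 3 intervals overlapping. These 4 genes had the same order of libraries, with E16.5-4n at the top, then P5-4n and E16.5-2n, then P1-4n, and with the 2n CMs of P5 and P1 at the bottom, and in each gene the intervals of neighbouring libraries did not overlap.

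**Figure D2:**
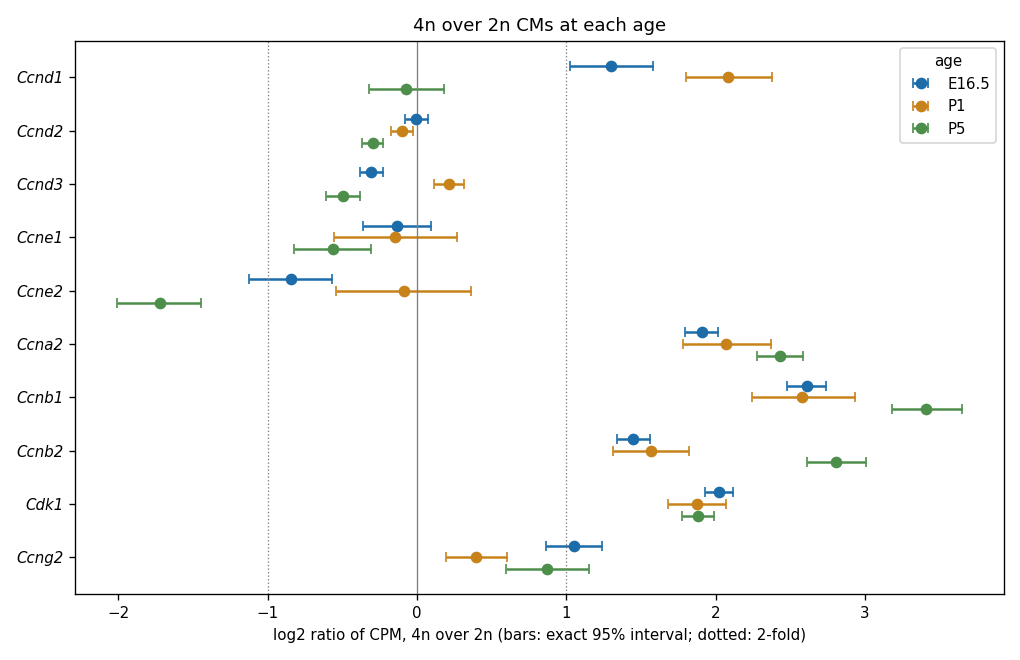
Ratio of CPM in 4n over 2n CMs (log2) for each gene at E16.5, P1 and P5, with exact 95% intervals as bars and dotted lines at 2-fold. Ccna2, Ccnb1, Ccnb2 and Cdk1 lie at 1.45 or more at every age, Ccne2 lies at -0.85, -0.088 and -1.72, and Ccnd1 lies at 1.30, 2.09 and -0.071.

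The mix of B-type cyclin transcripts differed between the ploidies. Per UMI of Ccnb2 there were 0.591 (0.531 to 0.656) UMIs of Ccnb1 in E16.5-2n and 1.32 (1.25 to 1.40) in E16.5-4n. At P1 the values were 0.485 (0.367 to 0.636) and 0.980 (0.872 to 1.10), and at P5 they were 0.678 (0.553 to 0.828) and 1.03 (0.963 to 1.10). Each 4n library thus held relatively more Ccnb1 than its 2n library. Per UMI of Cdk1, Ccnb2 had 0.767 (0.704 to 0.835) UMIs in E16.5-2n, 0.619 (0.507 to 0.753) in P1-2n and 0.270 (0.234 to 0.312) in P5-2n. The 3 4n libraries ranged from 0.499 to 0.515.

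The share of CMs with a UMI of these genes followed the same order once every CM had been thinned to 2000 UMIs (CMs with fewer were left out, 2244 with 2n and 2142 with 4n at E16.5, with 4133 and 998 at P1 and with 446 and 167 at P5). At least 1 UMI of Ccna2, Ccnb1, Ccnb2 or Cdk1 was found in 26.0% (24.5 to 27.5) of 2n and 58.2% (56.3 to 60.1) of 4n CMs at E16.5, in 5.49% (4.73 to 6.33) and 13.2% (12.2 to 14.4) at P1, and in 10.8% (9.89 to 11.8) and 36.9% (35.3 to 38.5) at P5. Without thinning the shares were 27.1%, 59.2%, 5.31%, 18.1%, 16.7% and 47.0%. For comparison, CMs with no UMI of any S or G2/M marker after thinning to 1000 UMIs were taken (members excluded from both lists). Their median depth was 1853 to 4620 UMIs. This choice also leaves out CMs that took up marker transcripts as free RNA. The share in the CMs that remain can therefore understate free RNA, which was not measured. At 1000 UMIs per CM, 9.30% (4.90 to 15.7) of these unmarked CMs of E16.5-4n had a UMI of the 4 genes, against 45.3% of all its CMs. In P5-4n the values were 3.01% (1.51 to 5.31) and 27.8%. In P1-2n they were 1.35% (0.847 to 2.03) and 2.86%, so that the P1-2n share was closest to that of its unmarked CMs.

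**Figure D3:**
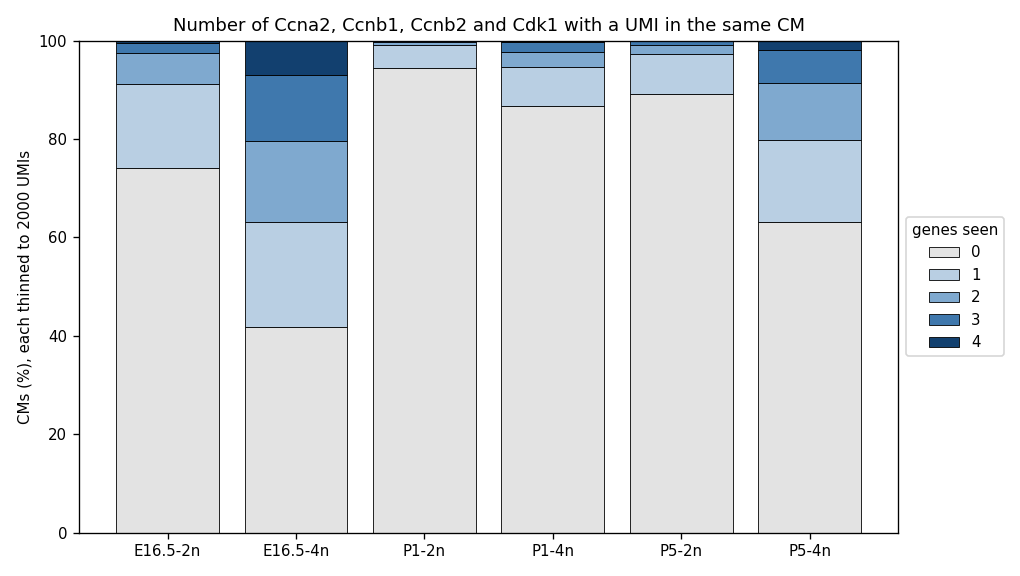
Share of CMs (%, each thinned to 2000 UMIs) in which 0, 1, 2, 3 or 4 of Ccna2, Ccnb1, Ccnb2 and Cdk1 had a UMI, by library. All 4 were seen together in 6.98% of E16.5-4n CMs and 1.98% of P5-4n CMs, and in under 0.5% of each other library.

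Of the CMs with a UMI of any of the 4 genes, 594 of 898 had exactly 1 of them in E16.5-2n and 587 of 1594 in E16.5-4n. At P1 these were 148 of 176 with 2n and 295 of 496 with 4n, and at P5 they were 323 of 430 and 579 of 1286. All 4 had a UMI in 0.463% (0.265 to 0.751) of 2n and 6.98% (6.05 to 8.0) of 4n CMs at E16.5, in 0.125% (0.0340 to 0.319) and 0.320% (0.165 to 0.558) at P1, and in 0.126% (0.0409 to 0.294) and 1.98% (1.54 to 2.50) at P5. In E16.5-4n, Cdk1 was seen in 68.6% (65.2 to 71.9) of the 781 CMs with a Ccnb1 UMI and in 27.5% (25.6 to 29.6) of those without. In P5-4n, Cdk1 was seen in 58.4% (53.7 to 62.9) of the 466 CMs with a Ccnb1 UMI and in 16.2% (14.9 to 17.5) of those without. Among CMs with a UMI of any of the 4 genes, their UMIs together averaged 3.39 per CM in E16.5-4n and 2.72 in P5-4n, against 1.90 in E16.5-2n and 1.69 in P5-2n.

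To compare the ploidies at like amounts of other G2/M transcripts, CMs were grouped by their UMIs of 52 G2/M markers (members excluded, counted after thinning to 1000 UMIs). Ccnb1 stood higher in each fuller group of every library. Among CMs with at least 10 marker UMIs (383 with 2n and 1927 with 4n at E16.5, then 46 and 207 for P1 and 68 and 798 for P5), a threshold chosen after the data had been seen, Ccnb1 stood at 272 CPM in 2n and 512 in 4n CMs at E16.5, 221 and 391 CPM at P1, and 189 and 355 CPM at P5. The log2 ratio of 4n over 2n in them was 0.91 (0.73 to 1.10) at E16.5, 0.82 (0.27 to 1.43) at P1 and 0.91 (0.54 to 1.30) at P5. That ratio was smaller than over all CMs at each age, and its interval stayed above 0. Marker UMIs still differed within this class, as 650 of the E16.5-4n CMs but 39 of the E16.5-2n CMs had 20 or more. At 10 to 19 marker UMIs Ccnb1 stood at 253 (222 to 288) CPM in E16.5-2n and 405 (384 to 426) in E16.5-4n, and at 20 or more it stood at 493 (352 to 672) and 740.0 (699 to 782).

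In the same class Ccna2 had log2 ratios of 0.36 (0.20 to 0.53), 0.47 (-0.062 to 1.06) and 0.49 (0.18 to 0.81), and Cdk1 had 0.78 (0.63 to 0.93), 0.93 (0.45 to 1.45) and 0.28 (0.053 to 0.52). Ccnb2 had 0.31 (0.13 to 0.50), -0.093 (-0.56 to 0.41) and 0.74 (0.35 to 1.16), and the P1 intervals of Ccna2 and Ccnb2 included 0. These CMs held 87.4% of all Ccnb1 UMIs of E16.5-4n in 40.0% of its total UMIs, and 77.8% of those of P5-4n in 21.5%. They held 49.5% of the Ccnb1 UMIs of E16.5-2n in 6.996% of its total UMIs, and 36.7% of those of P5-2n in 1.801%. In unmarked CMs the level of Ccnb1 lay between 0.811 CPM (P1-2n) and 6.57 CPM (E16.5-4n), from 2 to 10 UMIs in each library.

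**Figure D4:**
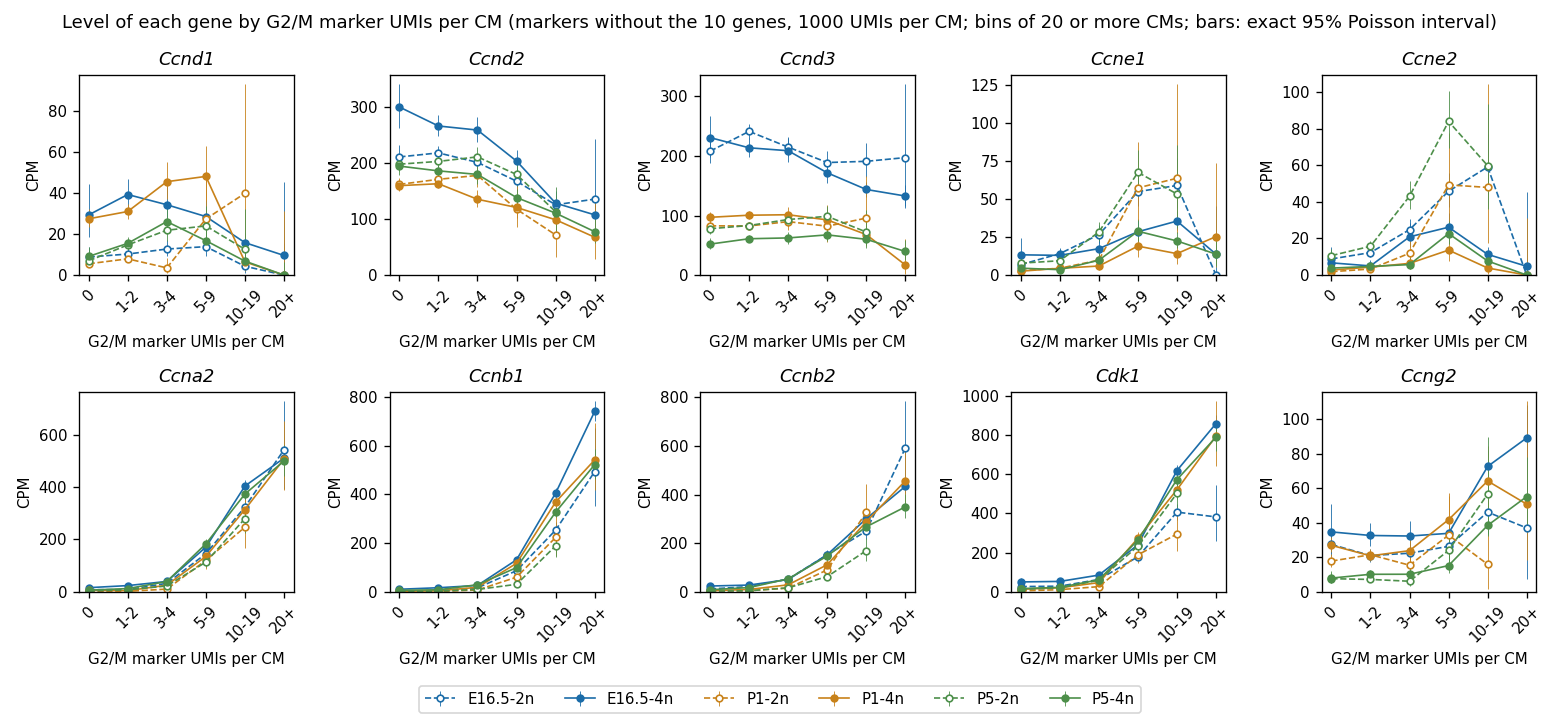
Level of each gene (CPM, linear axes) in CMs grouped by their UMIs of 52 G2/M markers after thinning to 1000 UMIs, for the 6 libraries (dashed lines and open circles for 2n, solid lines and filled circles for 4n), with exact 95% Poisson intervals and only bins of 20 or more CMs. Ccna2, Ccnb1, Ccnb2 and Cdk1 are highest in the fullest bin, except Cdk1 of E16.5-2n (407 CPM at 10 to 19 markers and 382 at 20 or more), Ccne2 is highest at 5 to 19 markers, and Ccnd2 is lower at 10 to 19 markers than at 0 in every library.

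The E-type cyclins did not share the pattern of the mitotic members. Ccne1 stood at 24.6 CPM (22.1 to 27.3) in 2n and 22.4 (19.9 to 25.1) in 4n CMs at E16.5, 5.96 (4.84 to 7.26) and 5.39 (4.41 to 6.52) at P1, and 17.5 (15.6 to 19.6) and 11.8 (10.3 to 13.5) at P5. Its log2 ratio of 4n over 2n was -0.14 (-0.36 to 0.092) at E16.5, -0.14 (-0.55 to 0.27) at P1 and -0.56 (-0.82 to -0.31) at P5, and the first 2 intervals included 0. The E16.5 libraries overlapped and so did the P1 libraries, whereas P5-2n lay above P5-4n. Ccne2 stood at 22.6 CPM (20.2 to 25.1) in 2n and 12.5 (10.7 to 14.6) in 4n CMs at E16.5, 4.86 (3.86 to 6.05) and 4.58 (3.68 to 5.63) at P1, and 25.1 (22.8 to 27.5) and 7.61 (6.40 to 8.98) at P5. Its log2 ratio was -0.85 (-1.13 to -0.57) at E16.5, -0.088 (-0.54 to 0.36) at P1 and -1.72 (-2.01 to -1.45) at P5, that is 3.30-fold (2.72 to 4.02) higher in the 2n CMs of P5. Of all genes, 0.0642% had a lower ratio at P5 and 0.104% at E16.5. In its order of levels P5-2n and E16.5-2n overlapped at the top, and both P1 libraries overlapped at the bottom.

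Set against Ccnb1 in the same library, Ccne2 differed more. Per UMI of Ccnb1 there were 0.588 (0.512 to 0.675) UMIs of Ccne2 in E16.5-2n and 0.0536 (0.0455 to 0.0627) in E16.5-4n. At P5 the 2n CMs had 2.71 (2.26 to 3.26) and the 4n CMs had 0.0773 (0.0647 to 0.0919). At P1 there were 0.988 (0.716 to 1.36) and 0.155 (0.123 to 0.194), so that each 2n library held more Ccne2 per Ccnb1 than its 4n library.

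E-type cyclins were higher in CMs rich in S phase transcripts. Grouped by UMIs of 42 S markers (members excluded), Ccne2 stood at 5.55 (3.77 to 7.88) CPM in the E16.5-2n CMs with 0 of them and at 83.4 (69.8 to 98.7) in those with 5 or more. In P5-2n the values were 6.15 (4.52 to 8.18) and 103 (84.8 to 124), and in E16.5-4n they were 1.46 (0.473 to 3.40) and 39.8 (30.2 to 51.4). Ccne1 showed 8.96 and 92.7 CPM in E16.5-2n, and 3.54 and 79.7 in P5-2n. At 5 or more S markers, Ccne2 was lower in E16.5-4n than in E16.5-2n.

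Among CMs with at least 10 G2/M marker UMIs Ccne2 stood at 54.3 (40.9 to 70.7) CPM in E16.5-2n and 9.20 (6.79 to 12.2) in E16.5-4n, at 47.4 (17.4 to 103) in P1-2n and 3.34 (0.689 to 9.77) in P1-4n, and at 58.9 (35.5 to 92.0) in P5-2n and 6.56 (4.29 to 9.62) in P5-4n. The P1 values rest on 6 and 3 UMIs. The log2 ratio of 4n over 2n was -2.56 (-3.15 to -1.97) at E16.5, -3.82 (-6.45 to -1.60) at P1 and -3.17 (-4.08 to -2.23) at P5. Ccne1 had -0.93 (-1.38 to -0.45), -2.02 (-3.37 to -0.56) and -1.31 (-2.08 to -0.47). In this class both E-type cyclins were lower in 4n CMs at every age, with intervals that excluded 0.

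Few CMs carried an E-type transcript. At 2000 UMIs per CM, Ccne2 was seen in 4.92% (4.22 to 5.70) of 2n and 2.48% (1.93 to 3.14) of 4n CMs at E16.5, in 0.967% and 0.80% at P1, and in 3.81% (3.23 to 4.45) and 1.52% (1.14 to 1.98) at P5. Unthinned, the shares were 5.00%, 2.87%, 0.940%, 1.71%, 8.04% and 3.28% in the same order. At 1000 UMIs the share among unmarked CMs was 0.493% (0.102 to 1.43) in P5-2n and 0.273% (0.00692 to 1.51) in P5-4n, against 2.41% and 0.903% of all CMs. In P1-4n it was 0.194% (0.0235 to 0.698) against 0.442%, and in E16.5-4n it was 0% (0 to 2.82) against 0.988%. In each 4n library the share of all CMs thus lay within the interval of the unmarked CMs. In E16.5-2n, Ccne1 was seen in 20.6% (14.8 to 27.5) of the 170 CMs with a Ccne2 UMI and in 4.29% (3.62 to 5.04) of those without. In P5-2n, Ccne1 was seen in 5.30% (2.31 to 10.2) of the 151 CMs with a Ccne2 UMI and in 2.57% (2.09 to 3.12) of those without, where the intervals overlapped.

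Of the D-type cyclins, Ccnd2 had the narrowest range of levels. It stood at 199.9 CPM (193 to 207) in 2n and 199 (192 to 207) in 4n CMs at E16.5, 164 (158 to 171) and 153 (148 to 159) at P1, and 199.7 (193 to 206) and 163 (157 to 168) at P5. Its log2 ratio of 4n over 2n was -0.0035 (-0.080 to 0.073) at E16.5, -0.099 (-0.17 to -0.024) at P1 and -0.30 (-0.37 to -0.23) at P5. The E16.5 libraries and P5-2n overlapped at 199 to 199.9 CPM, and the other 3 lay at 153 to 164 CPM, where P5-4n overlapped both P1 libraries and the P1 libraries overlapped narrowly. Ccnd2 was lower where G2/M markers were many: it stood at 300.2 (262 to 342) CPM in E16.5-4n CMs with 0 such UMIs and at 108 (92.5 to 125) in those with 20 or more. In P5-4n the values were 195 (178 to 212) and 77.5 (56.5 to 104). In E16.5-4n a UMI of Ccnd2 was seen in 21.3% (18.4 to 24.3) of the 781 CMs with a Ccnb1 UMI and in 33.7% (31.6 to 35.9) of those without.

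Ccnd3 was highest in the E16.5 libraries. It stood at 219.6 CPM (212 to 227) in 2n and 178 (171 to 185) in 4n CMs at E16.5, 84.0 (79.6 to 88.5) and 97.3 (93.0 to 102) at P1, and 84.6 (80.4 to 89.0) and 59.9 (56.5 to 63.6) at P5. The log2 ratio of 4n over 2n of Ccnd3 was -0.31 (-0.38 to -0.23) at E16.5, 0.21 (0.11 to 0.31) at P1 and -0.50 (-0.61 to -0.38) at P5, the only member whose intervals lay on both sides of 0. P1-2n and P5-2n overlapped, and all other neighbours in its order of levels did not. Per UMI of Ccnd2 there were 1.10 (1.04 to 1.16) UMIs of Ccnd3 in E16.5-2n, 0.511 (0.479 to 0.546) in P1-2n and 0.424 (0.399 to 0.450) in P5-2n. In 4n CMs the values were 0.891 (0.843 to 0.943), 0.635 (0.599 to 0.672) and 0.369 (0.344 to 0.395), so that this ratio was lower after birth in both ploidies.

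Ccnd1 stood at 10.6 CPM (9.0 to 12.4) in 2n and 26.1 (23.4 to 29.0) in 4n CMs at E16.5, 7.42 (6.16 to 8.86) and 31.5 (29.0 to 34.1) at P1, and 14.8 (13.1 to 16.7) and 14.1 (12.4 to 15.9) at P5. For Ccnd1 the log2 ratio of 4n over 2n was 1.30 (1.02 to 1.58) at E16.5, 2.09 (1.80 to 2.38) at P1 and -0.071 (-0.32 to 0.18) at P5. P5-2n and P5-4n overlapped, and the 4n libraries of E16.5 and P1 stood highest. Levels of markers of other cell types differed between the same libraries. CMs with at least 2 UMIs of the 29 non-CM markers after thinning to 1000 UMIs made up 1.86% (1.52 to 2.25) of 2n and 17.8% (16.7 to 18.9) of 4n CMs at E16.5, 2.23% (1.89 to 2.61) and 22.5% (21.3 to 23.7) at P1, and 4.39% (3.81 to 5.04) and 7.69% (6.85 to 8.60) at P5. In these CMs Ccnd1 stood at 72.1, 72.1, 78.6, 73.5, 146 and 93.7 CPM, against 8.89, 15.7, 5.15, 18.5, 7.54 and 7.42 CPM in the other CMs of the same libraries in turn, a difference of 3.98- to 19.4-fold. The CMs with non-CM markers held 19.4% to 55.3% of the Ccnd1 UMIs of a library, and 2.87% to 23.7% of all its UMIs. No doublet caller was run, and whether these CMs were droplets with another cell was not tested.

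Without the CMs that carried non-CM markers, Ccnd1 had a 4n over 2n log2 ratio of 0.82 (0.48 to 1.17) at E16.5, 1.84 (1.48 to 2.22) at P1 and -0.023 (-0.39 to 0.34) at P5. The E16.5 value was then under 2-fold, which left 5 members at least 2-fold higher in 4n CMs at that age, and the P1 value was not. Without these CMs the median log2 ratio over all genes was 0.011 at E16.5, and the share of all genes past 2-fold is not given. For no other member was the level in the marked CMs over 3-fold that of the other CMs in any library. In E16.5-4n the mitotic members stood lower in the marked CMs, at 0.299-fold for Ccnb1, 0.354-fold for Cdk1, 0.382-fold for Ccna2 and 0.430-fold for Ccnb2 of the level in the others. In the same order of genes the values were 0.373-, 0.647-, 0.577- and 0.527-fold in P1-4n, and 0.782-, 0.806-, 0.737- and 0.728-fold in P5-4n. In 2n CMs they were 2.06-, 1.97-, 1.52- and 1.04-fold in E16.5-2n and 2.37-, 1.66-, 1.80- and 2.96-fold in P5-2n, while each rested on 10 or fewer UMIs in the marked CMs of P1-2n. Without these CMs the 4n over 2n log2 ratio of Ccnb1 was 2.85 (2.71 to 2.98) at E16.5, 2.79 (2.44 to 3.15) at P1 and 3.53 (3.29 to 3.78) at P5.

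**Figure D5:**
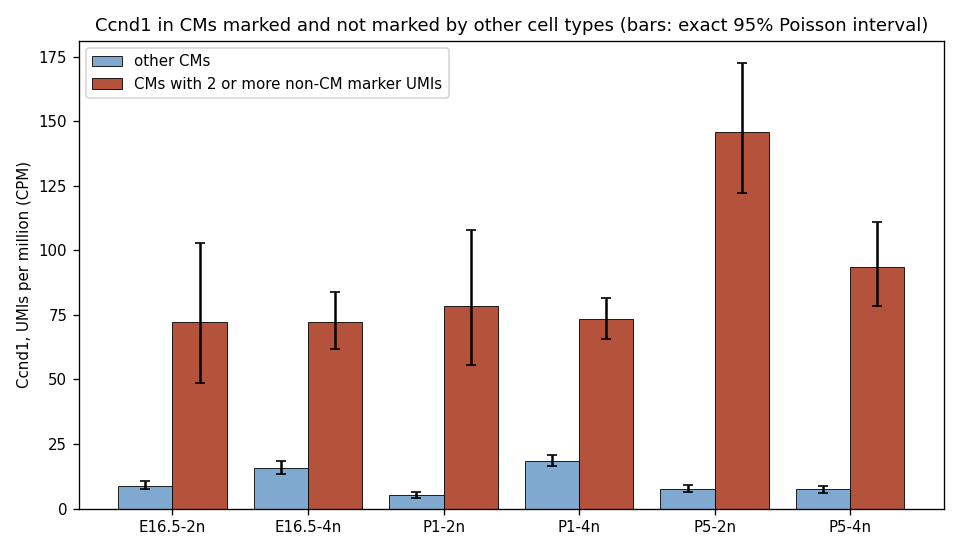
Ccnd1 (CPM, axis from 0) in CMs with at least 2 UMIs of 29 markers of other cell types after thinning to 1000 UMIs (red) and in the other CMs (blue), by library, with exact 95% Poisson intervals. The marked CMs stand at 72.1 to 146 CPM and the other CMs at 5.15 to 18.5 CPM.

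Ccng2 stood higher in the 4n library at each age, by less than the mitotic members, and did not pass the edgeR test over the 3 ages (adjusted p = 0.061). It stood at 24.6 CPM (22.1 to 27.3) in 2n and 51.0 (47.2 to 55.0) in 4n CMs at E16.5, 19.8 (17.7 to 22.1) and 26.1 (23.9 to 28.4) at P1, and 9.37 (8.01 to 10.9) and 17.2 (15.3 to 19.2) at P5. For Ccng2 the log2 ratio of 4n over 2n was 1.05 (0.86 to 1.24) at E16.5, 0.40 (0.19 to 0.60) at P1 and 0.87 (0.60 to 1.15) at P5, with each interval above 0. In its order of levels E16.5-4n was alone at the top and P5-2n alone at the bottom, P1-4n overlapped E16.5-2n, and P1-2n overlapped P5-4n. Ccng2 was higher in CMs with many G2/M markers, except in P1-2n. It stood at 34.7 (22.7 to 50.8) CPM with 0 marker UMIs and 89.1 (75.3 to 105) with 20 or more in E16.5-4n. In P5-4n it stood at 7.97 (4.93 to 12.2) and 55.1 (37.7 to 77.8). In unmarked CMs and in those with at least 10 marker UMIs it stood at 16.4 and 45.4 CPM in E16.5-2n. The values were 28.7 and 62.4 in P1-4n, and 8.52 and 55.8 in P5-2n. In P1-2n they were 18.4 and 15.8, the latter from 2 UMIs. In E16.5-4n a UMI of Ccng2 was seen in 13.5% (11.5 to 15.7) of the 1075 CMs with a Cdk1 UMI and in 6.43% (5.30 to 7.72) of those without. Unmarked CMs held 21.6% of its UMIs in P1-2n and 22.6% in P1-4n, close to their 23.4% and 20.5% of all UMIs, whereas they held 3.80% and 1.73% of the Ccnb1 UMIs.

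Between ages, the median over all genes itself moved, by a log2 ratio of -0.34 (2n) and -0.30 (4n) from E16.5 to P1, -0.094 and -0.16 from P1 to P5, and -0.45 and -0.51 from E16.5 to P5, and values relative to it are given after the ratios. From E16.5 to P1 the E-type and mitotic members were lower in both ploidies. In 2n CMs, 7 of 10 members were at least 2-fold lower (Ccnd3, both E-type cyclins and the 4 mitotic members), where 12.1% of all genes were, and 0 were higher (1.98%). In 4n CMs, 6 were lower (the same without Ccnd3, against 11.6%) and 0 were higher (2.88%). Relative to the median these counts were again 7 and 6, and the share of all genes on that scale is not given here.

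In 2n CMs, Ccna2 had a log2 ratio of P1 over E16.5 of -3.00 (-3.29 to -2.72), Ccnb1 of -2.96 (-3.32 to -2.62), Ccnb2 of -2.68 (-2.92 to -2.44) and Cdk1 of -2.37 (-2.56 to -2.18). Relative to the median of all genes these were -2.66, -2.63, -2.34 and -2.03. In 4n CMs, Ccna2 had -2.83 (-2.96 to -2.71), Ccnb1 -2.99 (-3.12 to -2.86), Ccnb2 -2.56 (-2.69 to -2.43) and Cdk1 -2.52 (-2.61 to -2.42), or -2.53, -2.69, -2.26 and -2.22 relative to the median. For each mitotic member the intervals of the 2 ploidies overlapped. Ccne1 had -2.05 (-2.38 to -1.72) in 2n and -2.06 (-2.39 to -1.73) in 4n CMs (-1.71 and -1.76 relative to the median), and Ccne2 had -2.21 (-2.58 to -1.86) and -1.46 (-1.84 to -1.08) (-1.88 and -1.16). Ccnd1 had -0.51 (-0.87 to -0.16) and 0.27 (0.078 to 0.47) (-0.18 and 0.57 relative to the median). Without the CMs that carried non-CM markers it had -0.79 (-1.21 to -0.37) and 0.23 (-0.047 to 0.52). Ccnd3 had -1.39 (-1.48 to -1.30) and -0.87 (-0.96 to -0.78) (-1.05 and -0.57). The intervals of the 2 ploidies overlapped for Ccne1 and not for Ccne2 or Ccnd3. Ccnd2 and Ccng2 in 2n CMs, at -0.28 and -0.31, stood at 0.052 and 0.023 relative to the median, so that their direction depended on the scaling.

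From P1 to P5, in 2n CMs, 4 members were at least 2-fold higher (Ccne1, Ccne2, Ccna2 and Cdk1), where 3.02% of all genes were, and 1 was lower (Ccng2, against 1.98%). In 4n CMs, 5 were higher (Ccne1, Ccna2, Ccnb1, Ccnb2 and Cdk1, against 2.4%) and 1 was lower (Ccnd1, against 5.85%). Relative to the median, 6 members were higher and 0 lower in 2n CMs, since Ccnd1 and Ccnb1 then passed 2-fold and Ccng2 did not. The 4n counts were again 5 and 1, and the share of all genes on that scale is not given here.

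Ccnb2 had a log2 ratio of P5 over P1 of 0.43 (0.14 to 0.72) in 2n and 1.67 (1.54 to 1.81) in 4n CMs (0.52 and 1.83 relative to the median). Without the CMs that carried non-CM markers the 2n ratio was 0.24 (-0.058 to 0.55), an interval that included 0. Ccnb1 had 0.91 (0.52 to 1.31) and 1.74 (1.60 to 1.88) (1.01 and 1.90), and Ccne2 had 2.37 (2.02 to 2.73) and 0.73 (0.34 to 1.13) (2.46 and 0.89). The B-type cyclins thus had the larger ratio in 4n CMs and Ccne2 in 2n CMs, with intervals that did not overlap, and the difference between ploidies was not tested. Cdk1 had 1.62 (1.42 to 1.82) and 1.63 (1.53 to 1.72) (1.72 and 1.79), which overlapped. Ccnd1 had 0.99 (0.68 to 1.32) in 2n and -1.16 (-1.38 to -0.95) in 4n CMs, and 0.55 (0.14 to 0.97) and -1.31 (-1.63 to -1.01) without the CMs that carried non-CM markers.

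Between E16.5 and P5 no member was 2-fold higher in either ploidy. In 2n CMs, 5 were at least 2-fold lower at P5 (Ccnd3, Ccna2, Ccnb1, Ccnb2 and Ccng2), where 16.8% of all genes were, and 0 were higher (3.03%). In 4n CMs, 3 were lower (Ccnd3, Ccnb1 and Ccng2, against 21% of all genes, so that the count was near the background) and 0 were higher (2.48%). The lower counts were 2 (Ccnb1 and Ccnb2) and 2 (Ccnd3 and Ccng2) relative to the median, where the share of all genes is not given. Of all genes, 1.62% had a lower ratio than Ccnb1 and 1.16% than Ccnb2 in 2n CMs. In 4n CMs, 6.1% had a lower ratio than Ccnd3 and 6.1% than Ccng2. The 4n count was 6 without the CMs that carried non-CM markers, where Ccnd1, Ccnb2 and Cdk1 also reached 2-fold. Their log2 ratios, -1.08, -1.02 and -1.05, lay just past that threshold. The median over all genes was then -0.50, and the share of all genes past 2-fold is not given.

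Ccnb1 had a log2 ratio of P5 over E16.5 of -2.05 (-2.31 to -1.80) in 2n and -1.25 (-1.34 to -1.17) in 4n CMs (-1.60 and -0.74 relative to the median). Cdk1 had -0.75 (-0.87 to -0.62) and -0.89 (-0.95 to -0.82) (-0.30 and -0.38). Ccne2 had 0.15 (-0.054 to 0.36) and -0.72 (-1.06 to -0.39) (0.60 and -0.21), so that its 2n level at P5 was not distinguishable from that at E16.5 on the CPM scale. With each CM thinned to 2000 UMIs its 2n ratio was -0.33, outside that interval, whereas thinning to 1000 UMIs did not change its sign. Thinning to 2000 UMIs also left out more 2n CMs at E16.5 (2244) than at P5 (446). The depth was therefore not separated from the choice of CMs. Ccnd2 had -0.0014 (-0.072 to 0.070) and -0.29 (-0.37 to -0.22), but 0.45 and 0.21 relative to the median, so that its direction in 4n CMs depended on the scaling. Ccnd1 had 0.48 (0.19 to 0.78) in 2n and -0.89 (-1.13 to -0.65) in 4n CMs (0.93 and -0.38 relative to the median). Without the CMs that carried non-CM markers it had -0.24 (-0.60 to 0.13) and -1.08 (-1.42 to -0.74), where the median over all genes was -0.47 and -0.50.

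In the 4n CMs with at least 10 G2/M marker UMIs, Ccnb1 stood at 512 (493 to 532) CPM at E16.5, 391 (351 to 434) at P1 and 355 (337 to 374) at P5. Ccna2 stood at 438 (420.4 to 457), 339.8 (303 to 380.1) and 392 (373 to 412) CPM, and Cdk1 at 696 (673 to 719), 557 (509 to 608) and 604 (580.3 to 629). The class held 1927 of 4857 in E16.5-4n, 207 of 4747 in P1-4n and 798 of 3654 in P5-4n. Within the class the levels of these genes differed by less than 1.5-fold between ages. The Ccnb1 interval of E16.5-4n still lay above those of P1-4n and P5-4n. Over all CMs Ccnb1 stood 7.95-fold (7.27 to 8.70) higher in E16.5-4n than in P1-4n. The class was itself chosen by G2/M transcripts, which can narrow differences within it, so these contrasts do not separate the number of such CMs from their levels.

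Among partners and regulators of the members, 48 genes had been listed as other cyclins, kinases and their cofactors, inhibitors, activating kinases and phosphatases, and factors of cyclin destruction. At E16.5, 41 of them had at least 100 UMIs over both libraries, and 14 of these were at least 2-fold higher and 0 lower in 4n CMs, beside 4.64% and 0.0208% of all genes. At P1 the counts were 7 higher and 0 lower of 37 (5.23% and 0% of all genes), and at P5 they were 11 and 0 of 39 (1.87% and 0.406%). The activating group (Plk1, Aurka, Bora and the Cdc25 phosphatases) had 5 of 6 higher at E16.5, 2 of 4 at P1 and 5 of 6 at P5, and the other cyclins had 1 of 14, 0 of 13 and 1 of 13.

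The largest log2 ratios at E16.5 were 2.81 (2.60 to 3.03) for Aurka and 2.64 (2.42 to 2.87) for Plk1, kinases of mitotic entry, and 2.51 (2.39 to 2.64) for Cdc20, which directs the anaphase promoting complex to the B-type cyclins. At P1 they were 2.67 (2.09 to 3.31) for Plk1, 2.52 (2.35 to 2.70) for Ube2c, the ubiquitin-conjugating enzyme of that complex, and 2.46 (1.98 to 2.98) for Aurka. At P5 they were 3.48 (2.78 to 4.26) for Cdc25c, a phosphatase that activates Cdk1, 3.06 (2.96 to 3.17) for Ube2c and 2.90 (2.57 to 3.24) for Plk1. These genes lay in the range of the mitotic members or above it.

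The smallest log2 ratios at E16.5 were -0.26 (-0.50 to -0.027) for Cdk7, the kinase that activates other cyclin-dependent kinases, -0.25 (-0.35 to -0.16) for the cyclin gene Ccng1 and -0.20 (-0.60 to 0.20) for Ccnjl. At P1 they were -0.25 (-0.39 to -0.10) for Ccnh, the cyclin of Cdk7, -0.21 (-0.29 to -0.13) for Ccng1 and -0.18 (-0.66 to 0.30) for Ccnjl. At P5 they were -0.44 (-0.81 to -0.076) for Cdc25a, a phosphatase that acts on Cdk2, -0.38 (-0.52 to -0.25) for Cdk4, the kinase of the D-type cyclins, and -0.34 (-0.66 to -0.032) for Usp37, a deubiquitinase of cyclin A. Between E16.5 and P1, 18 of 39 listed genes were at least 2-fold lower in 2n CMs (12.1% of all genes) and 21 of 41 in 4n CMs (11.6%), with 1 higher in each (1.98% and 2.88%). Between P1 and P5, 7 of 36 were higher and 2 lower in 2n CMs (3.02% and 1.98% of all genes), and 12 of 40 were higher and 1 lower in 4n CMs (2.4% and 5.85%). Between E16.5 and P5, 15 of 39 were lower in 2n CMs (16.8% of all genes) and 19 of 41 in 4n CMs (21%), with 1 higher in each (3.03% and 2.48%).

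The genes nearest to each member in their pattern over the 6 libraries were found by the distance of centred log2 CPM among the 9625 genes with at least 300 UMIs and 1 in each library. The 6 points share libraries and depth, and a like pattern says nothing of shared control. Cdk1 was nearest to Racgap1 (distance 0.18), Tpx2 (0.21) and Ska1 (0.29), genes of the spindle and of cytokinesis. Ccna2 was nearest to Cdca8 (0.39), Birc5 (0.39) and Anln (0.40), Ccnb1 to Cdc25c (0.37), Plk1 (0.53) and Kif23 (0.58), and Ccnb2 to Cdca3 (0.54), Knstrn (0.58) and Cdkn3 (0.64). These genes act in mitosis, in cytokinesis or on Cdk1.

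Ccne1 was nearest to Chaf1b (0.29), a chromatin assembly factor of replicating DNA, Tcf19 (0.37) and Gins3 (0.38), and Ccne2 to Cdt1 (0.61), a licensing factor, Pole2 (0.67) and Mcm6 (0.69). Ccnd1 was nearest to Egfl7 (0.15), an endothelial gene that is also 1 of the 29 non-CM markers, Rarres2 (0.28) and Ctla2a (0.33). Ccnd2 was nearest to Slc38a1 (0.082), Dhrs7b (0.093) and Ap1s2 (0.098), and Ccnd3 to Trim27 (0.18), Map3k8 (0.22) and Tom1l1 (0.25). Ccng2 was nearest to Twf1 (0.46), Cdkn1b (0.52), the inhibitor p27, and Skil (0.54).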

How the data were processed

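Single cell 3′ RNA profiles of sorted CMs were read from the tables of UMI counts that the authors deposited, 1 per library, which hold whole raw counts per gene and cell. The authors made them with Cell Ranger and STAR against mm10 (GRCm38), counting UMIs of exonic and intronic reads in the sense of the gene, and analysed them in Seurat, for which the labels name version 2.3.0 and the methods also a later one. The version of Cell Ranger is not given in the sources used here. A table of marker genes from the authors' own comparisons (fold changes and p-values) and their list of background genes were not used. Groups came from the sample titles. The age field of E16.5-4n differs from its title in the place of the decimal point, and the title was used.

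CMs were cells with at least 1 UMI of each of 4 CM genes, and the 6 libraries held 13070343 to 19665830 UMIs in CMs. UMIs were summed over CMs and scaled to CPM with exact 95% Poisson intervals. Ratios of CPM have exact intervals from the binomial split of the UMIs, and shares of CMs have Clopper-Pearson intervals. With 1 library per group, 9 comparisons of single libraries were described without a test, 3 of ploidy and 6 of age. The effect of 4n over 2n over the 3 ages was tested on summed UMIs with edgeR 4.0.16 (TMM, glmQLFit and glmQLFTest in R 4.3.3), with age as a replicate block and genes of at least 300 UMIs over the 6 libraries, and with DESeq2 1.42.0 as an alternative. The pairing by age rests on the methods, which describe 3 sorts for each age. The deviations of both libraries of an age from their ploidy's mean correlated over 9628 genes by r = 0.901 at E16.5, 0.747 at P1 and 0.712 at P5. A difference between ages that both ploidies share also gives such a correlation. It therefore cannot show that both libraries came from the same sorts. All genes with at least 100 UMIs over both libraries gave the background. For shares, each CM was thinned at random to 1000 or 2000 UMIs. No doublet caller was run. According to the methods, clumps were filtered out ahead of the sort and cells were gated on scatter, and removal of doublets by software is not stated in the sources used here.

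The members, gene lists and thresholds were chosen with earlier results of these data known, and the class of CMs with at least 10 G2/M marker UMIs the spacing of CCAAT boxes and the edgeR test were added after these data had been seen. The genes named are the 10 members, the 3 largest and 3 smallest 4n over 2n ratios at each age among listed partner genes with at least 100 UMIs, and the 3 genes nearest to each member by Euclidean distance of centred log2 CPM among genes with at least 300 UMIs. Alternatives were other scalings, depths, CM filters, fold thresholds and minimum counts, and leaving out CMs with markers of other cell types or an age. The alternative without marked CMs left out CMs under 1000 UMIs as well. Gene positions came from GENCODE and promoters from RefSeq (GRCm38.p6), where 6 of the 10 members matched. The promoters of Ccna2, Ccnd1, Ccnd2 and Ccne2 were not used here. Scripts were tested on simulated data and ran in Python 3.11.15 with numpy 2.4.6, scipy 1.17.1, pandas 2.3.3 and matplotlib 3.10.9.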

Additional observations from a re-analysis of the deposited data

Results flagged for a closer look

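Ccnd3 had a log2 ratio of 4n over 2n of -0.31 at E16.5 but 0.21 at P1 and -0.50 at P5, so that P1 differed in direction from both other ages. It was picked out because the single libraries moved in opposite directions with intervals on either side of 0, and the differences were not tested.

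Ccnd1 differed in direction between the ploidies in each comparison of ages. Its log2 ratio of P1 over E16.5 was -0.51 in 2n and 0.27 in 4n CMs, that of P5 over P1 was 0.99 and -1.16, and that of P5 over E16.5 was 0.48 and -0.89. These differences were not tested. The share of CMs with non-CM markers was 1.86% and 17.8% at E16.5 (2n and 4n), 2.23% and 22.5% at P1, and 4.39% and 7.69% at P5. Without those CMs the ratios in 2n and 4n CMs were -0.79 (-1.21 to -0.37) and 0.23 (-0.047 to 0.52) for P1 over E16.5, 0.55 (0.14 to 0.97) and -1.31 (-1.63 to -1.01) for P5 over P1, and -0.24 (-0.60 to 0.13) and -1.08 (-1.42 to -0.74) for P5 over E16.5, so that the last no longer differed in direction.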

How the results depend on the processing

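Of the 99 counts of members past 2-fold that were recomputed under an alternative, 95 stayed within 1.5 times the value reported and 4 did not. For P5 over P1 in 2n CMs the count was 3 in place of 5 with each CM thinned to 2000 UMIs. For P5 over E16.5 it was 2 in place of 5 in 2n CMs with size factors by the median of ratios, and in 4n CMs it was 6 in place of 3 without cells marked by other cell types and 9 at a threshold of 1.5-fold. The share of all genes past the threshold under these alternatives is not given here, and the cause was not tested. Of 720 recomputed log2 ratios of members, 553 moved by less than the counting interval of the value reported and 167 by more, 50 of them under the median of ratios, and 20 differed in sign. In 4 of these 20 the reported interval had excluded 0. They were Ccnd2 (-0.28 to 0.062) and Ccng2 (-0.31 to 0.033) for P1 over E16.5 in 2n CMs and Ccnd2 (-0.29 to 0.23) for P5 over E16.5 in 4n CMs, all under the median of ratios, and Ccnd1 (0.48 to -0.24) for P5 over E16.5 in 2n CMs without cells marked by other cell types. None of the 20 was a 4n over 2n ratio of Ccna2, Ccnb1, Ccnb2, Cdk1 or Ccng2. Levels in cells marked by G2/M genes moved beyond their interval in 158 of 240 alternatives, and shares of CMs with a UMI in 122 of 180, since both depend on the marking threshold or the depth. In the edgeR test of 4n over 2n over the 3 ages, 4 members and 187 genes passed with age as a replicate block. Without the replicate block 0 members and 0 genes passed (4 members and 358 genes at an unadjusted p under 0.05), and without a minimum number of UMIs 7 members and 814 genes did. DESeq2 called 6 members and 420 genes, and edgeR called 6 and 348 without cells marked by other cell types. With each age left out, 3 to 6 members passed, with 75 genes without E16.5, 208 without P1 and 1167 without P5. Leaving out P5 brought in Ccnd1 and Ccng2, and leaving out P1 brought in Ccne2 and Ccng2. The share of all tested genes that passed is not given for these alternatives. In classes of few CMs a level can rest on under 10 UMIs.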
